A study of Homo sapiens with 145 samples.

Results

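The genes described here are 9 genes of homologous recombination and the Fanconi anaemia pathway, namely BRCA1, BRCA2, BRIP1, BARD1, RAD54L, BLM, FANCD2, FANCB and FANCG. They were found by their gene symbol in the annotation of the array, and each gene was represented by the probe set (a group of short probes against 1 transcript) with the highest mean over all arrays. Of the 9 genes, 7 were measured in this way, out of 12070 genes tested. No probe set carried the symbol BRCA2 or FANCD2 alone in that annotation, so these 2 genes were not analysed here. The 7 measured genes all passed the filter on low values, which asked for a log2 level of at least 4 in at least 5 arrays.

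Homologous recombination repairs a broken DNA double strand by copying the intact sister chromatid, and it works mainly in S and G2 phase, when that copy exists. BRCA1 and its partner BARD1 form a ubiquitin ligase that steers breaks into this route, the helicase BRIP1 (also called FANCJ) binds BRCA1, RAD54L remodels DNA while the broken strand invades the sister, and the helicase BLM helps to trim broken ends and to take joint molecules apart. FANCB and FANCG are parts of the Fanconi core complex, which marks DNA crosslinks for repair by attaching ubiquitin to FANCD2 and its partner FANCI, and many of these genes are known to be transcribed most in cells that enter and pass through S phase.

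The samples came from HT-1080, which is an established human fibrosarcoma line, and received 1 of 3 chemicals for 24 h. Etoposide poisons topoisomerase II and so leaves DNA breaks, methyl methanesulfonate (MMS) adds methyl groups to DNA bases, and quercetin is a flavonol from plants. Etoposide was given at 0.003, 0.01, 0.03, 0.1, 0.3, 1 and 3 µM, MMS at 1, 3, 10, 30, 100, 300 and 500 µM, and quercetin at 1, 3, 10, 30, 60, 80 and 100 µM, each beside its own group that got the solvent DMSO, called the vehicle below. RNA was measured on Affymetrix arrays, whose values are log2 levels. Replicate numbers run from 1 to 6, but the labels do not say that they are separate cultures, so p-values measure the spread between these samples, which may be technical. These are bulk samples, in which fewer cells of a kind (such as cells in S phase) and less RNA per cell cannot be told apart.

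Samples numbered 2 in the etoposide and quercetin experiments were left out of every group, because their changes followed the other chemical. Over all genes, the sample labelled etoposide 3 µM number 2 changed with a correlation of 0.90 with quercetin 100 µM and 0.30 with etoposide 3 µM, and the sample labelled quercetin 100 µM number 2 gave 0.89 with etoposide 3 µM and 0.39 with quercetin 100 µM. This left 5 samples in each etoposide and quercetin group, 6 in each MMS group and 5 at 500 µM MMS, and results that change when the number 2 samples are kept are given both ways. No 2 arrays held identical values. Array medians lay between 3.51 and 3.59 in the etoposide experiment, between 3.08 and 3.17 with MMS and between 3.33 and 3.41 with quercetin, so levels were compared only within a chemical. All 8 of 8 mesenchymal markers were at a log2 level of at least 4 in all vehicle groups, against 2 of 8 epithelial, 1 of 7 measured blood cell and 0 of 4 endothelial markers.

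The promoters of these genes are shown first, since the genes are compared by how closely their changes follow each other across the doses, as described further below. The sequences are the 150 bases before the RefSeq transcription start on GRCh38.p14, 5′ to 3′ on the gene's own strand, with capitals marking the CCAAT box (CCAAT, or ATTGG when it lies on the opposite strand). BRIP1, BLM and RAD54L hold this motif, and FANCG is shown as a gene without it, which BARD1 and FANCB, not printed, also lack.
BRIP1, chr17:61863529-61863678, minus strand: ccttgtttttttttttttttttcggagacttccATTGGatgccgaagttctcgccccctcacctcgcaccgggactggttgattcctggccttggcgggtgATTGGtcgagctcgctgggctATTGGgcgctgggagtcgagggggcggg
BLM, chr15:90717196-90717345, plus strand: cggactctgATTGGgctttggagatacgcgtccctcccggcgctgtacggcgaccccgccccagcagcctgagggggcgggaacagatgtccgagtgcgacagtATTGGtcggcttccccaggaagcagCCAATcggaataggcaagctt
RAD54L, chr1:46247538-46247687, plus strand: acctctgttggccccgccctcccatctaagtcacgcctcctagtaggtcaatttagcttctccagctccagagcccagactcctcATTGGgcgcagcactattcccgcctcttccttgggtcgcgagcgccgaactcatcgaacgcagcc
FANCG, chr9:35079943-35080092, minus strand: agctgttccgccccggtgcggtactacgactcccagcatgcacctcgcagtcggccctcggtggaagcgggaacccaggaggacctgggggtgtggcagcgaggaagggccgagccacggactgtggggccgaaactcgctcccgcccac

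In the 250 bases before the start, a CCAAT box on either strand was found in 4 of the 7 measured genes: BRIP1 and BLM with 3 each, RAD54L and BRCA1. Counted by window, since BRCA1 and RAD54L have 2 annotated starts, it was in 5 of 9, among them both of RAD54L, which overlap each other, and 1 of the 2 of BRCA1. Among 35116 RefSeq windows of the same length, 32% hold it. BARD1, FANCB and FANCG lack it, of which BARD1 is among the 5 genes whose changes followed the others most closely. The CHR element TTTGAA, searched on both strands, was found in BRIP1 only, 240 bases before the start, and 13.3% of all windows hold it. None of the 7 genes held TTTGGCGC, TTTCCCGC, TTTCGCGC or TTTGCCGC, forms of the E2F motif searched on both strands, which 2.79% of windows hold. Only these exact runs were searched, so other forms of the E2F motif may be present. BRCA1, BLM, RAD54L and FANCG hold the shorter run TTCCCGC or its reverse complement GCGGGAA, and BARD1, BRIP1 and FANCB do not. The share of all windows with this shorter run was not counted. No CCAAT match overlapped the CHR match, and a match is a run of letters, not a measured binding site.

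Etoposide lowered most of these genes at 0.1 µM and again at 3 µM, with smaller changes at 0.3 and 1 µM in between. At 0.003 and 0.01 µM no gene was called, that is, none had both an adjusted p below 0.05 (limma, Benjamini-Hochberg over all 12070 genes) and a change of at least 1.5-fold, and 0% of all genes were called in either direction at these doses. By unadjusted p below 0.05, 118 of all genes and 0 of the 7 passed at 0.003 µM, and 208 and 0 at 0.01 µM. At 0.03 µM none of the 7 was called, against 0.63% of all genes in either direction, although the changes ran from -0.41 to -0.78 on the log2 scale. In a fit with a term for each replicate number, called the block below, which compares samples of the same number, BRCA1, BRIP1, BARD1, RAD54L and BLM were called lower at 0.03 µM, 5 of 7 against 0.994% of all genes. At 0.1 µM 6 of 7 were called lower, against 2.36% of all genes, and with the block all 7 were, against 2.63%. At 0.3 µM none was called, against 4.56% of all genes in either direction, and with the block BARD1 alone was called lower, against 1.82%. At 1 µM BARD1 was called lower, against 3.73% of all genes, and with the block BARD1 and BRIP1 were, against 3.93%. At 3 µM 6 of 7 were called lower, all but FANCB, against 6.92% of all genes. The median change of the 7 genes was -0.98, -0.35, -0.47 and -0.94 at 0.1, 0.3, 1 and 3 µM, while the median over all genes lay between 0.01 and 0.02 at these doses.

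**Figure D1:**
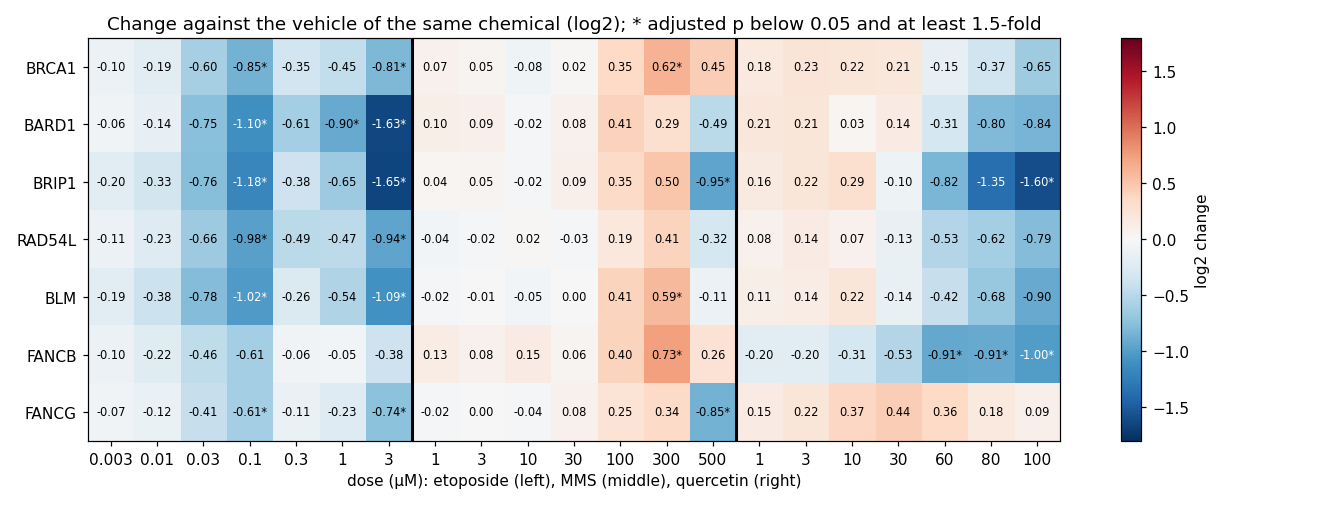
Change of each gene (rows) at each dose in µM (columns) against the vehicle of the same chemical, as a log2 difference, with etoposide on the left, MMS in the middle and quercetin on the right. A star marks an adjusted p below 0.05 with a change of at least 1.5-fold. The etoposide block is blue at 0.1 and 3 µM and paler at 0.3 µM, the MMS block is red at 300 µM and mixed at 500 µM, and the FANCG row stays above 0 at all quercetin doses.

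BRIP1, the BRCA1-bound helicase, had vehicle levels of 7.84, 7.68, 7.26, 7.42 and 7.41 in numbers 1, 3, 4, 5 and 6 of the etoposide experiment. At 0.1 µM the same numbers gave 6.93, 6.55, 5.74, 6.29 and 6.21, and at 3 µM they gave 6.67, 5.42, 5.14, 6.18 and 5.96. Every sample at both doses lay below every vehicle sample. The change was -1.18 ± 0.27 (log2, standard error, n = 5 and 5) at 0.1 µM, to 44.2% of the vehicle level, with an adjusted p of 0.00203 in limma. At 3 µM it was -1.65 ± 0.27, to 31.9% of vehicle (limma adjusted p = 4.22e-06). At 0.3 µM in between, the levels were 7.70, 7.10, 6.38, 7.23 and 7.31, which overlap the vehicle group, and the change of -0.38 was not called.

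BARD1, the partner of BRCA1 in the ubiquitin ligase, was at 8.28, 7.61, 7.39, 7.77 and 7.97 in the vehicle samples. It was at 7.29, 6.75, 6.28, 6.45 and 6.74 with 0.1 µM etoposide and at 6.53, 5.57, 6.10, 6.24 and 6.43 with 3 µM. The groups did not overlap at either dose. BARD1 fell by 1.10 at 0.1 µM and by 1.63 at 3 µM on the log2 scale, the latter to 32.3% of vehicle (limma adjusted p = 5.17e-07). It was the only one of the 7 called at 1 µM, where its levels of 7.61, 6.41, 6.49, 7.01 and 6.99 gave a change of -0.90 (limma adjusted p = 0.00264). When etoposide 1 µM number 1, the highest of the 5, was left out, 4 of the 7 genes were called at 1 µM. The share of all genes called in that fit was not counted.

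BRCA1 itself was at 7.95, 7.75, 7.19, 7.72 and 7.78 in the vehicle samples. Its levels were 7.45, 6.94, 6.27, 6.72 and 6.77 at 0.1 µM and 7.34, 6.52, 6.47, 7.03 and 6.99 at 3 µM. The highest dosed sample, number 1, lay above the lowest vehicle sample, number 4, so the groups overlap, but within each of the 5 numbers the dosed sample was lower. The change was -0.85 ± 0.21 at 0.1 µM (limma adjusted p = 0.00484) and -0.81 ± 0.21 at 3 µM (limma adjusted p = 0.00208), to 55.6% and 57.1% of vehicle.

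RAD54L, the DNA translocase of strand invasion, was at 7.90, 7.20, 6.88, 7.13 and 7.28 in the vehicle samples, at 6.90, 6.51, 5.58, 6.36 and 6.15 at 0.1 µM and at 6.81, 5.71, 6.05, 6.50 and 6.58 at 3 µM. At 0.1 µM only number 1 reached the lowest vehicle level, and at 3 µM no sample did. The changes were -0.98 and -0.94, both called. BLM, the helicase lost in Bloom syndrome, was at 7.32, 6.83, 6.57, 6.62 and 6.96 in the vehicle samples, at 6.32, 5.81, 5.37, 5.79 and 5.92 at 0.1 µM and at 6.32, 5.16, 5.68, 5.81 and 5.89 at 3 µM. Its groups did not overlap at either dose, and it fell by 1.02 and by 1.09 (limma adjusted p = 0.00237 and 0.000267).

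The 2 Fanconi core genes changed less. FANCG was at 7.53, 7.23, 7.15, 7.13 and 7.31 in the vehicle samples, at 6.95, 6.79, 6.32, 6.55 and 6.69 at 0.1 µM and at 6.86, 6.11, 6.29, 6.71 and 6.67 at 3 µM, with no overlap. It fell by 0.61 at 0.1 µM and by 0.74 at 3 µM (limma adjusted p = 0.00458 and 0.000133). The smaller of these lies just past the 1.5-fold limit (0.585 on the log2 scale), and it fell short of it when etoposide 0.1 µM number 4 (-0.53), number 5 (-0.581) or vehicle number 1 (-0.54) was left out. FANCB was at 5.87, 5.00, 5.16, 5.27 and 5.39 in the vehicle samples and at 5.34, 4.45, 4.36, 4.77 and 4.71 at 0.1 µM, which overlap. Its change of -0.61 there had a limma adjusted p of 0.0706, and of 1.48e-07 with the block. At 3 µM the FANCB levels of 5.29, 4.52, 4.63, 5.16 and 5.19 gave a change of -0.38 that was not called.

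**Figure D2:**
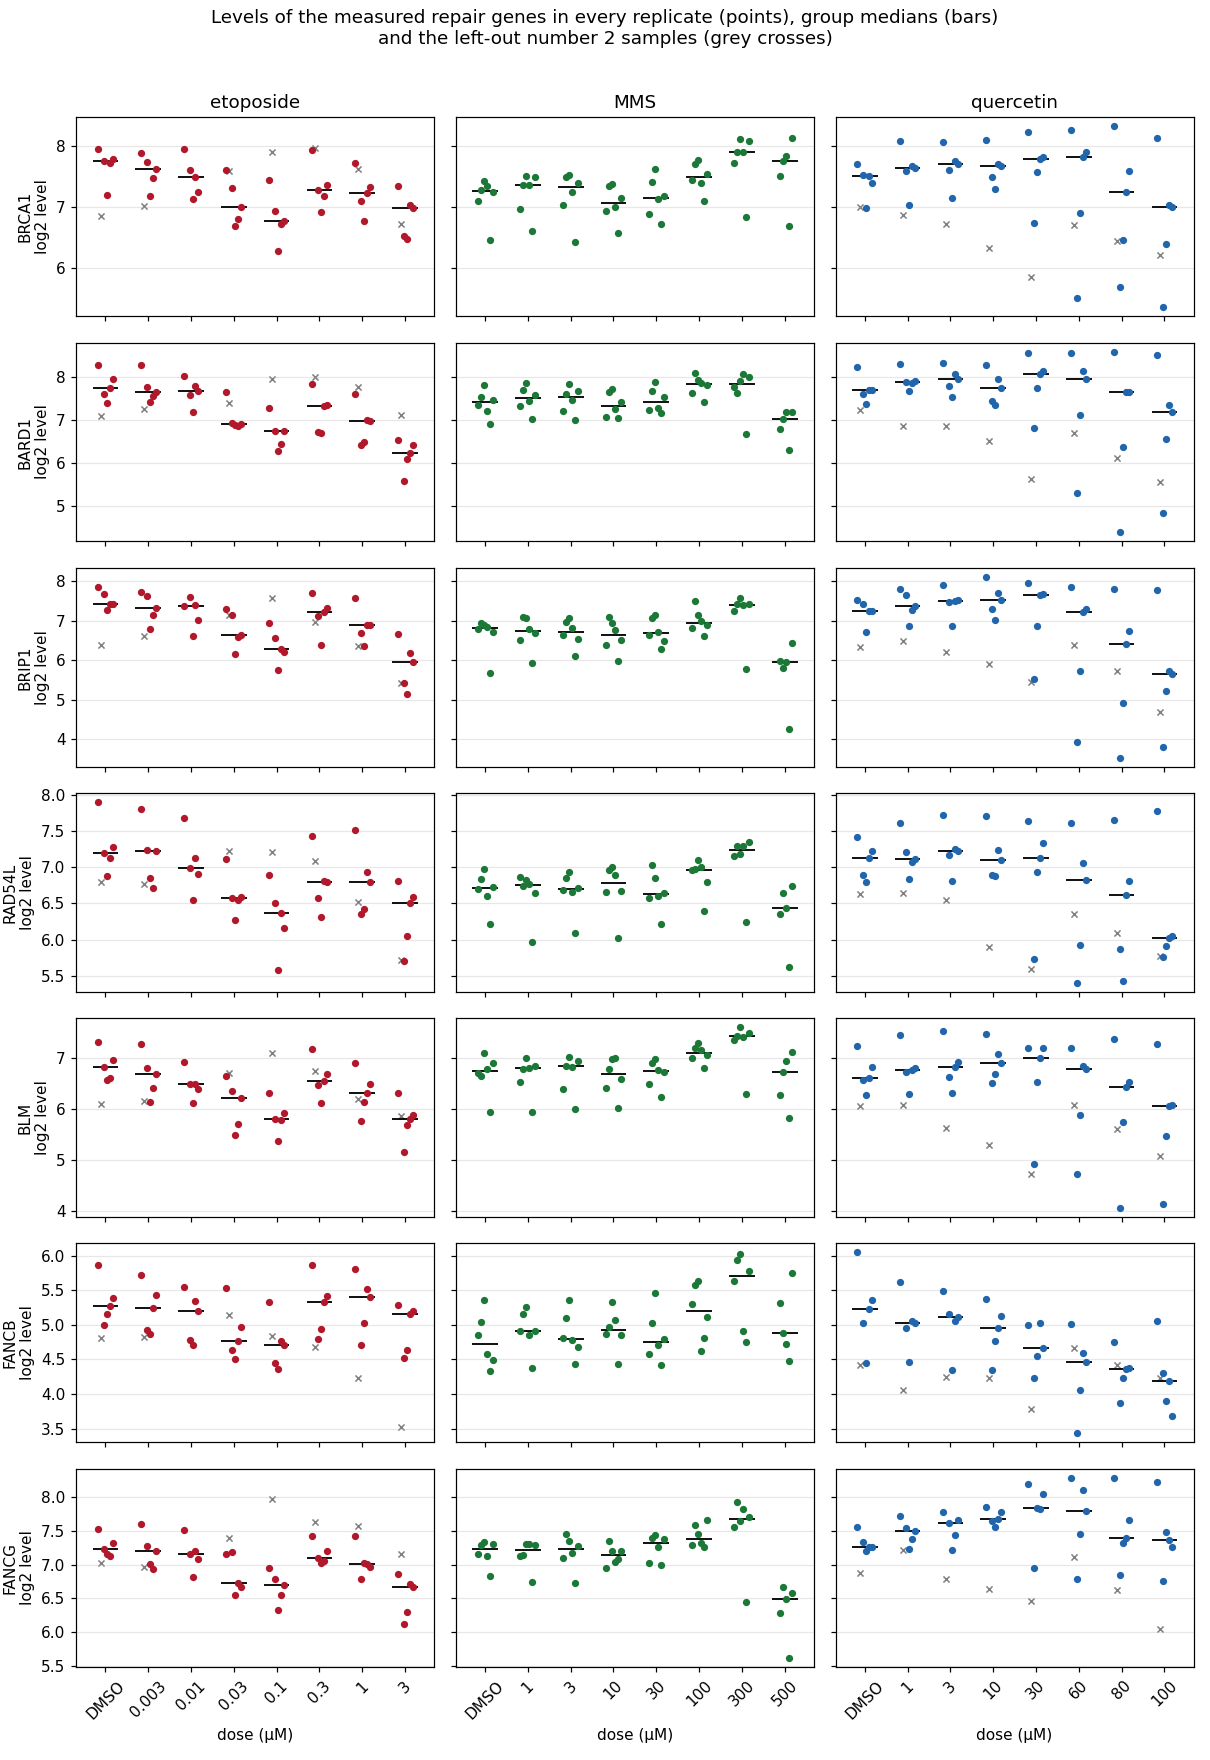
Log2 level (vertical axis) of each gene in every replicate against dose in µM (horizontal axis, not to scale), with 1 row per gene and 1 column per chemical. Coloured points are the samples used, black bars are their medians, and grey crosses are the number 2 samples left out. Etoposide samples of BRIP1 at 0.1 and 3 µM all lie below the vehicle samples, MMS number 5 is the lowest point at 300 µM in all 7 genes, and quercetin samples spread apart from 30 µM on.

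The rise between 0.1 and 0.3 µM etoposide was tested after the values had been seen. The 7 genes were higher at 0.3 than at 0.1 µM by 0.49 to 0.80 on the log2 scale, but none was called (0.24% of all genes were called higher), and with the block BRIP1 (0.80) and BLM (0.75) were (0.779% of all genes). From 0.3 to 3 µM BRIP1 (-1.27), BARD1 (-1.02), BLM (-0.82) and FANCG (-0.63) were called lower, 4 of 7 against 2.5% of all genes. Over all 7 doses together, limma's F-test passed 6 of the 7 genes, and FANCB too with the block, where 38.3% of all genes passed without and 68.3% with the block. With the samples numbered 2 kept as labelled, none of the 7 was called at 0.1 µM, against 64 of 12070 genes called lower. The same 6 were called at 3 µM, against 750 of 12070 genes, and there BRIP1 changed by -1.54 and BARD1 by -1.36. In the number 2 sample at 0.1 µM, BRIP1 was at 7.57 and FANCG at 7.96, above that number's vehicle levels of 6.40 and 7.03.

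With MMS none of these genes was called lower at any dose up to 300 µM, and at 300 µM some rose. At 1, 3, 10 and 30 µM none of the 7 was called, nor was any other gene (0% at each of the 4 doses), and by unadjusted p below 0.05 none of the 7 passed, against 32, 37, 59 and 127 of all genes. The changes of the 7 genes at these doses lay between -0.08 and 0.15. At 100 µM none was called, against 0.414% of all genes called higher. The changes at 100 µM ran from 0.19 (RAD54L) to 0.41 (BARD1), and every one of the 7 genes was above its vehicle level in all 6 numbers. How many of all genes were above vehicle in all 6 numbers was not counted. By unadjusted p below 0.05, 1 of the 7 passed there, against 1985 of all 12070 genes, which is a similar share.

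At 300 µM MMS FANCB, BRCA1 and BLM were called higher, 3 of 7 against 4.46% of all genes. FANCB, of the Fanconi core complex, lay between 4.33 and 5.36 in the 6 vehicle samples with a median of 4.72, and between 4.75 and 6.02 at 300 µM with a median of 5.71. The groups overlap, and all 6 numbers were higher with MMS. FANCB rose by 0.73 ± 0.22 (limma adjusted p = 0.00777, n = 6 and 6), to 166% of vehicle. Its vehicle levels lie near the filter level of 4, where the size of a change is uncertain. BRCA1 lay between 6.45 and 7.42 with a median of 7.26 in vehicle and between 6.84 and 8.12 with a median of 7.90 at 300 µM, and rose by 0.62 ± 0.21 (limma adjusted p = 0.018). BLM lay between 5.95 and 7.09 with a median of 6.74 in vehicle and between 6.30 and 7.60 with a median of 7.42 at 300 µM, a rise of 0.59 (limma adjusted p = 0.0265). In both genes the overlap comes from number 5, the lowest sample of each group. BRIP1 (0.50), RAD54L (0.41), FANCG (0.34) and BARD1 (0.29) were above vehicle without being called.

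The calls at 300 µM MMS rest on small margins. BLM at 0.59 stands barely past the fold limit, and it was lost when number 1, 2, 3, 4 or 6 of the 300 µM group was left out (0.57, 0.55, 0.52, 0.56 and 0.54), when vehicle number 2 (0.58) or number 5 (0.44) was, and under quantile normalization over all arrays (0.57). BRCA1 was lost without 300 µM number 3 (0.55) or 6 (0.56) or without vehicle number 5 (0.49). FANCB alone was then called without 300 µM number 3, without number 6 or without vehicle number 5. Without 300 µM number 5, BRIP1 joined the called genes with a change of 0.77 (limma adjusted p = 0.0151). With number 5 left out of every MMS group, the same 3 genes were called and the limma adjusted p of BRCA1 was 5.95e-05. In that fit BRIP1 (0.581), FANCG (0.49), RAD54L (0.48) and BARD1 (0.39) passed on p but not on fold. Their limma adjusted p lay between 7.63e-05 (FANCG) and 0.0218 (BARD1). The share of all genes that passed on p in that fit was not counted.

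At 500 µM MMS the genes parted. BRIP1 and FANCG were called lower, 2 of 7 against 16.9% of all genes, while BRCA1 and FANCB had means above vehicle that were not called. FANCG was at 6.28, 6.67, 6.49, 5.61 and 6.57 in numbers 2 to 6, and between 6.83 and 7.34 in vehicle with a median of 7.22. These groups did not overlap, and FANCG fell by 0.85 ± 0.17 (limma adjusted p = 3.8e-05). BRIP1 was at 5.98, 5.80, 5.96, 4.25 and 6.44, and between 5.68 and 6.93 in vehicle with a median of 6.82. BRIP1 overlaps only through vehicle number 5, and fell by 0.95 ± 0.29 (limma adjusted p = 0.00367). Without 500 µM number 5 its change was -0.59, with a limma adjusted p of 0.0508, so that FANCG alone was called.

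BRCA1 was at 7.52, 7.75, 7.83, 6.68 and 8.13 at 500 µM MMS, each above the vehicle sample of its own number. The change of 0.45 ± 0.22 was not called (limma adjusted p = 0.0802), and without 500 µM number 5 it was 0.67 (limma adjusted p = 0.00747). Its partner BARD1 was at 6.80, 7.03, 7.19, 6.30 and 7.19, lower than vehicle in all 5 numbers, and its change of -0.49 passed on p (limma adjusted p = 0.0284) but not on fold. RAD54L (-0.32), BLM (-0.11) and FANCB (0.26) were not called, and BLM turned to 0.081 without 500 µM number 5. With 1 sample left out at a time, the FANCB change lay between 0.074 (without 500 µM number 6) and 0.39, and that of RAD54L between -0.41 and -0.13 (without 500 µM number 5).

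From 300 to 500 µM MMS, BRIP1 (-1.45), FANCG (-1.19), BARD1 (-0.78), RAD54L (-0.72) and BLM (-0.69) were called lower, 5 of 7 against 10.5% of all genes. Without 500 µM number 5 this count was 3. BRCA1 changed by -0.18 over this step, with a 95% interval from -0.63 to 0.27, and FANCB by -0.48. Limma's F-test over the 7 MMS doses passed 5 of the 7 genes, all but RAD54L and FANCB, where 59.3% of all genes passed. Only 3 passed when 300 µM number 2, 3 or 6 was left out, and the share of all genes in those fits was not counted.

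Quercetin gave the widest spread between samples of the same dose. At 1, 3, 10 and 30 µM none of the 7 genes was called, against 0.0331%, 0.0911%, 1.78% and 17% of all genes in either direction. By unadjusted p below 0.05, 0 of the 7 passed at each of these doses, against 243, 350, 1873 and 5368 of all genes. The quercetin groups share 1 estimate of the spread per gene. The wide spread from 30 µM on therefore also made it harder for these genes to pass at 1, 3 and 10 µM. At 60 µM FANCB alone was called lower, 1 of 7 against 12.7% of all genes, and likewise at 80 µM, against 13.1%. At both doses this share is near that of all genes. At 100 µM BRIP1 and FANCB were called lower, 2 of 7 against 14.5% of all genes. The median change of the 7 genes was -0.42, -0.68 and -0.84 at 60, 80 and 100 µM.

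FANCB was at 6.05, 5.03, 4.46, 5.24 and 5.37 in numbers 1, 3, 4, 5 and 6 of the quercetin vehicle. With 60 µM the levels were 5.02, 3.43, 4.05, 4.59 and 4.47, with 80 µM 4.75, 3.86, 4.23, 4.37 and 4.38, and with 100 µM 5.06, 4.30, 3.89, 4.19 and 3.68. The groups overlap through the low vehicle number 4 and the high dosed number 1, but at each dose all 5 numbers were below their own vehicle. The changes were -0.91, -0.91 and -1.0 ± 0.28, the last to 49.9% of vehicle (limma adjusted p = 0.00308). Number 3 at 60 and 80 µM and numbers 4 and 6 at 100 µM lay under the filter level of 4. At such levels the size of a change is uncertain. With the number 2 samples kept, the change at 100 µM was -0.87 (limma adjusted p = 0.01). At 1, 3, 10 and 30 µM the FANCB changes lay between -0.20 and -0.53 and were not called.

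BRIP1 was at 7.53, 7.41, 6.71, 7.24 and 7.25 in the quercetin vehicle and at 7.77, 3.80, 5.21, 5.74 and 5.64 at 100 µM. Number 1 did not go down, number 3 went down most, and the other 3 samples lay below every vehicle sample. The change of -1.60 ± 0.63, to 33.0% of vehicle, had a limma adjusted p of 0.0335. It was not past 0.05 in limma when 100 µM number 3, 4 or 6 (adjusted p = 0.132, 0.0695 and 0.0518) or vehicle number 1, 3, 5 or 6 (0.0622, 0.0581, 0.0523 and 0.0527) was left out, nor with number 3 left out of every quercetin group, where the change was -1.10 (adjusted p = 0.0567).

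FANCG, the other core complex gene, was not called at any quercetin dose, and it did not pass limma's F-test over the 7 doses (adjusted p = 0.678). It was at 7.56, 7.34, 7.20, 7.26 and 7.26 in vehicle, at 8.19, 6.95, 7.84, 7.82 and 8.04 at 30 µM and at 8.21, 6.76, 7.48, 7.37 and 7.26 at 100 µM. Apart from number 3, every sample at 30 µM lay above every vehicle sample, with a mean change of 0.44 that was not called (limma adjusted p = 0.151). At 100 µM the change was 0.09, and it was -0.11 without number 1 at that dose, -0.049 with number 1 left out of all quercetin groups and -0.063 with the number 2 samples kept.

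BRCA1 (-0.65), BARD1 (-0.84), RAD54L (-0.79) and BLM (-0.90) were not called at 100 µM quercetin. Without 100 µM number 3 the changes of BRCA1, BARD1 and BLM were -0.29, -0.33 and -0.49. RAD54L was at 7.78, 5.76, 5.91, 6.02 and 6.05 against 7.41, 6.89, 6.79, 7.13 and 7.22 in vehicle. Here 4 of 5 samples lay below all vehicle samples and number 1 above all of them. Without number 1 at 100 µM, RAD54L (-1.15) and BLM (-1.27) joined BRIP1 and FANCB among the called genes. BRCA1 was at 8.13, 5.36, 6.39, 7.03 and 6.99 against 7.71, 7.53, 6.99, 7.52 and 7.39, so number 1 was the highest and number 3 the lowest of all.

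**Figure D3:**
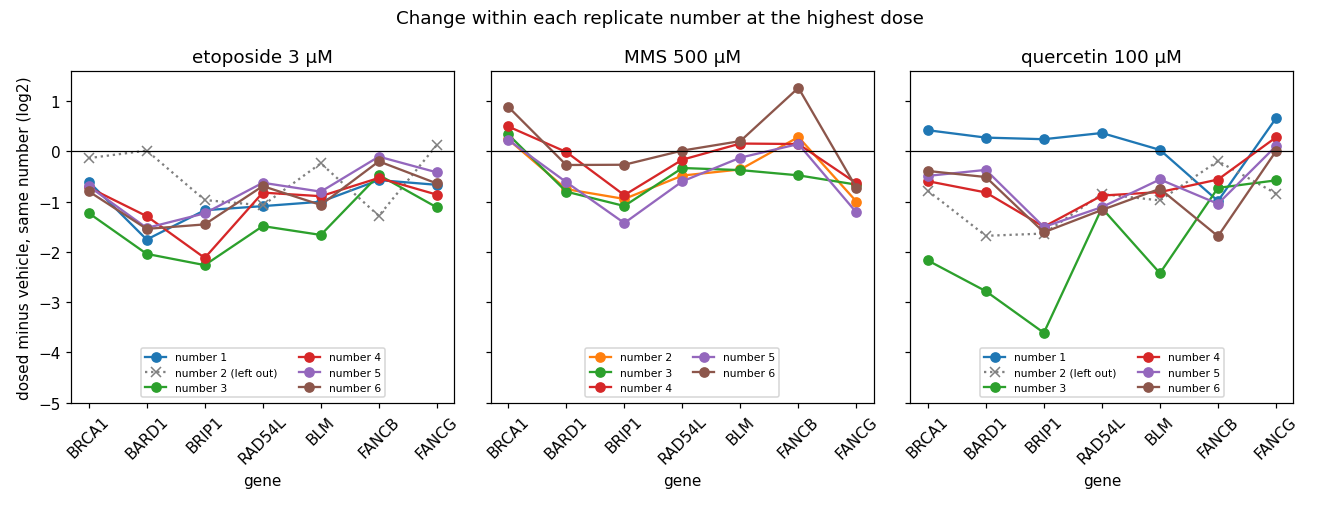
Log2 change at the highest dose of each chemical within each replicate number (lines, dosed minus vehicle sample of the same number) for the 7 genes on the horizontal axis. Dotted grey lines are the number 2 samples left out. With quercetin, number 1 lies above 0 in 6 of the 7 genes and number 3 falls to -3.61 in BRIP1, while the etoposide lines of the samples used all lie below 0.

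In quercetin 100 µM number 1, 6 of the 7 genes were above their own vehicle, and FANCB was lower by 0.99 on the log2 scale. In number 3 all 7 were below it, from -0.58 in FANCG to -3.61 in BRIP1. In numbers 4, 5 and 6, all genes except FANCG were below vehicle. The step from 30 to 100 µM called none of the 7, against 2.55% of all genes called lower, and without 100 µM number 1 it called 3. By limma's F-test over the 7 quercetin doses, BRIP1 and FANCB passed, where 56.8% of all genes did. What sets numbers 1 and 3 apart was not tested.

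The responses to the highest doses, each against its own vehicle, were then subtracted from each other in 1 fit of all 3 experiments, to ask where the chemicals differ. The 3 doses were not matched to each other by effect. This fit shares 1 estimate of the spread per gene over all 3 experiments. The wide quercetin spread therefore also enters the difference between etoposide and MMS. The BARD1 standard error was 0.52 for etoposide minus MMS, and also 0.52 for MMS minus quercetin. A gene not called for etoposide minus MMS may still differ. For etoposide 3 µM minus MMS 500 µM, BRCA1 was called, with a difference of -1.25 (95% interval -2.10 to -0.40, limma adjusted p = 0.0119), 1 of 7 against 30.5% of all genes. BARD1 differed by -1.14 (interval -2.17 to -0.12, limma adjusted p = 0.06), and FANCG by 0.11 (interval -0.44 to 0.65). Without 500 µM MMS number 5, 3 genes were called.

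For etoposide 3 µM minus quercetin 100 µM, FANCG was called, with -0.83 (95% interval -1.39 to -0.28, limma adjusted p = 0.0133), 1 of 7 against 23.4% of all genes. With the number 2 samples kept its difference was -0.53 (limma adjusted p = 0.319), and without quercetin 100 µM number 1 none of the 7 was called. BRIP1 differed by -0.05, with a wide interval from -1.27 to 1.17. For MMS 500 µM minus quercetin 100 µM, FANCB (1.26, limma adjusted p = 0.00244), BRCA1 (1.09, limma adjusted p = 0.0326) and FANCG (-0.94, limma adjusted p = 0.00323) were called, 3 of 7 against 28.2% of all genes. All 3 were also called with the number 2 samples kept. With etoposide as the first chemical the share of the 7 genes was below that of all genes in this fit with its shared spread.

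**Figure D4:**
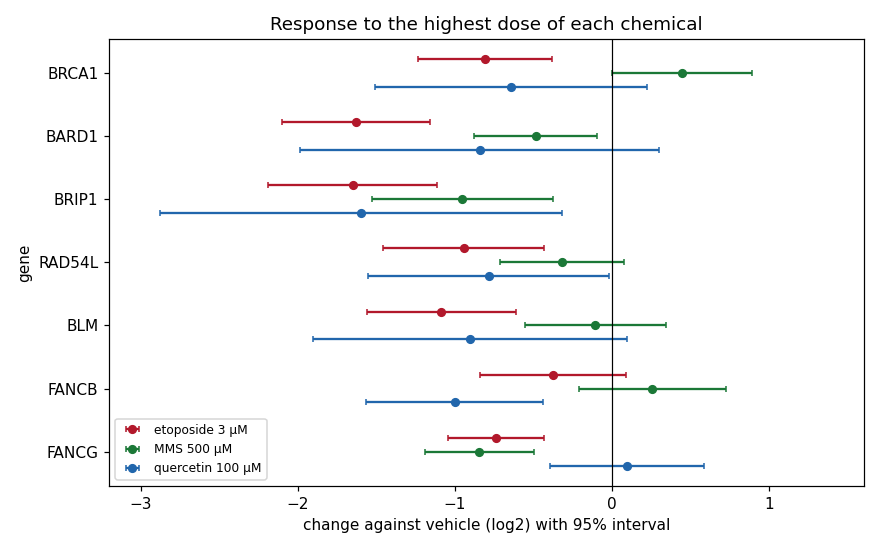
Log2 change against vehicle with its 95% interval from limma (horizontal axis) for the 7 genes at etoposide 3 µM (red), MMS 500 µM (green) and quercetin 100 µM (blue). BRCA1 stands at 0.45 with MMS and below 0 with the others, and FANCG stands at 0.09 with quercetin and below 0 with the others. The quercetin intervals are the widest in all 7 genes.

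Across the 21 dose groups, the changes of RAD54L and BLM followed the mean of the other measured genes most closely, with Pearson correlations of 0.98 each, then BARD1 and BRIP1 (0.93 each) and BRCA1 (0.88), and least FANCB (0.61) and FANCG (0.53). These are descriptions over 21 points, of which each set of 7 shares a vehicle group. Among 6660 other genes called at 1 dose or more, the 10 whose changes were most alike to the mean of the measured genes included ZWINT (0.98), CENPK, CDC7, DNA2, GMNN, TICRR, MELK, CIP2A and PLK4 (0.95). DNA2, a nuclease and helicase that trims DNA ends, changed by -0.97 at 0.1 µM and -0.89 at 3 µM etoposide, by 0.75 at 300 µM and -0.32 at 500 µM MMS and by -0.91 at 100 µM quercetin.

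Other genes of the same pathways were counted from lists of known members, which share no gene. Of 47 other homologous recombination genes measured, 12 were called lower at 0.1 µM etoposide (25.5% of the list, against 2.36% of all genes) and 16 at 3 µM (34%, against 6.92%). None was called higher at these doses, against 1.38% and 6.25% of all genes. At 300 µM MMS 8 were called higher (17%, against 4.46%) and 0 lower (against 7.75%). At 500 µM MMS 6 were called lower (12.8%, against 16.9%) and 8 higher (17%, against 17.7%), so both shares were at or below those of all genes. At 100 µM quercetin 10 were called lower (21.3%, against 14.5%) and 3 higher (6.38%, against 13.1%). Their median change was -0.33 at 0.1 µM and -0.32 at 3 µM etoposide, against 0.01 over all genes, and 0.21 at 300 µM MMS, against 0.03. At 500 µM MMS it was 0.04, against 0.05, and at 100 µM quercetin -0.21, against 0.0018.

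Of 21 other Fanconi genes measured, 4 were called lower at 0.1 µM etoposide (19%, against 2.36% of all genes) and 6 at 3 µM (28.6%, against 6.92%), and none higher. At 300 µM MMS 1 was called higher (4.76%, against 4.46%), a share near that of all genes, and 0 lower. At 500 µM MMS 4 were called higher (19%, against 17.7%) and 2 lower (9.52%, against 16.9%), the first share near and the second below that of all genes. At 100 µM quercetin 5 were called lower (23.8%, against 14.5%) and 0 higher. Their median change was -0.33 and -0.24 at 0.1 and 3 µM etoposide, 0.16 and 0.08 at 300 and 500 µM MMS and -0.20 at 100 µM quercetin.

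The partners of the measured genes did not all move one way. UBE2T, which attaches ubiquitin in the Fanconi pathway, fell by 1.10 at 0.1 µM and 1.14 at 3 µM etoposide, and USP1, which removes it, fell by 0.85 and 1.03. With 500 µM MMS and 100 µM quercetin UBE2T fell by 0.95 and 1.35, while USP1 (0.22 and -0.07) was not called. FANCI, the partner of FANCD2, fell by 0.76 at 0.1 µM etoposide and rose by 0.69 at 300 µM MMS, and was not called at 3 µM etoposide (-0.53), 500 µM MMS (-0.08) or 100 µM quercetin (-1.06). FANCM, which recruits the core complex, fell by 0.74 and 0.75 at 0.1 and 3 µM etoposide and by 1.89 at 100 µM quercetin. Of the BLM partners, RMI1 fell by 0.68 at both 0.1 and 3 µM etoposide and was not called at 300 or 500 µM MMS (0.21 and -0.16). TOP3A was not called at 0.1 or 3 µM etoposide (-0.30 and -0.44) and rose by 0.65 and 1.15 at these MMS doses and by 0.90 at 100 µM quercetin. PALB2, which links BRCA1 to BRCA2, was not called at 0.1 or 3 µM etoposide (-0.28 and -0.26) and rose by 0.71 at 500 µM MMS, where the median change of the 7 genes was -0.32. XRCC2, a recombination factor, was not called at 0.1 or 3 µM etoposide (-0.44 and -0.36), 300 or 500 µM MMS (0.58 and 0.33) or 100 µM quercetin (0.07). CHEK1, the checkpoint kinase, fell by 0.61 at 0.1 µM and 1.14 at 3 µM etoposide, and was not called at 500 µM MMS (-0.52) or 100 µM quercetin (-0.45).

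Cell cycle genes and p53 targets were also called at these doses. Of 38 genes of G1/S and DNA replication, 28, 16, 18 and 24 were called lower at 0.1, 0.3, 1 and 3 µM etoposide (73.7%, 42.1%, 47.4% and 63.2%), against 2.36%, 1.53%, 3.73% and 6.92% of all genes. At 300 µM MMS 6 were called higher (15.8%, against 4.46%) and 3 lower (7.89%, near the 7.75% of all genes). At 500 µM MMS 15 were called lower (39.5%, against 16.9%) and 4 higher (10.5%, below the 17.7% of all genes), and at 100 µM quercetin 12 were called lower (31.6%, against 14.5%). Of 30 genes of G2/M and mitosis, 16, 1, 20 and 27 were called lower at 0.1, 0.3, 1 and 3 µM etoposide (53.3%, 3.33%, 66.7% and 90%), beside the same shares of all genes. With MMS 11 were called lower at 300 µM (36.7%, against 7.75%) and 30 at 500 µM (100%, against 16.9%), and 30 were at 100 µM quercetin (100%, against 14.5%). At 500 µM MMS the median change was -0.32 in the G1/S list and -1.82 in the G2/M list, against 0.05 over all genes.

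Of 27 p53 targets measured, 17 were called higher at 0.1 µM etoposide (63%, against 1.38%) and 22 at 3 µM (81.5%, against 6.25%). With MMS 17 were called higher at 300 µM (63%, against 4.46%) and 16 at 500 µM (59.3%, against 17.7%), and 24 were at 100 µM quercetin (88.9%, against 13.1%). CDKN1A, the p53 target that stops the cell cycle, rose by 1.17 and 1.83 at 0.1 and 3 µM etoposide, by 1.35 and 1.41 at 300 and 500 µM MMS and by 1.29 at 100 µM quercetin. MDM2, the p53 target that restrains p53, rose by 1.07 and 1.35, by 1.02 and 0.89 and by 1.13 at the same doses. The part of the cell cycle in the changes of the repair genes was not tested.

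Other probe sets of the same genes, not chosen by the rule, gave the same direction at 0.1 and 3 µM etoposide, 300 and 500 µM MMS and 100 µM quercetin. The 2 further BARD1 probe sets changed by -1.12 and -0.87 at 0.1 µM and by -1.65 and -1.07 at 3 µM etoposide, all called, and the brighter of them was called lower at 500 µM MMS (-0.60), where the chosen one was not. The second BRIP1 probe set was dim, with vehicle means of 4.16, 3.85 and 4.03 in the etoposide, MMS and quercetin experiments. It changed by -0.52 at 0.1 µM etoposide, short of the fold limit. Its changes of -0.77 at 3 µM etoposide, -0.65 at 500 µM MMS and -0.81 at 100 µM quercetin were all called. With levels this close to the filter level of 4, the size of these changes is uncertain. The second BRCA1 probe set changed by 0.77 at 300 µM MMS, which was called, and by -0.79 and -0.66 at 0.1 and 3 µM etoposide, which were not. The 2 further kept FANCB probe sets were dim, with vehicle means of 4.38 and 3.89 in the MMS and 4.22 and 3.62 in the quercetin experiment, near or under the level of 4 used as the filter. They changed by 1.06 and 0.85 at 300 µM MMS and by -1.16 and -0.68 at 100 µM quercetin, all called, but at such levels the size of a change is uncertain. BLM, RAD54L and FANCG had 1 probe set each.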

How the data were processed

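The deposited value table holds log2 expression levels of 54613 probe sets on 145 arrays, which the authors made with GCRMA and Partek, per the submitters' processing notes. Their versions and settings, and whether the 3 experiments were normalized together, are not given in the sources used here. Levels ran from 1.61 to 13.74. Genes were named from the platform annotation, in which 40914 probe sets had 1 symbol, 864 several and 12835 none, and only the first were used. Probe sets at a log2 level of at least 4 in at least 5 arrays were kept (27102), and the one with the highest mean over all arrays stood for its gene (12070 genes). Arrays of 1 group with the same replicate number were averaged, which gave 142 samples, and 127 were used after number 2 was left out of the etoposide and quercetin groups. Some etoposide and quercetin titles carry a suffix (-nf or -o) that the labels do not explain. The averaged arrays include some with such a suffix. Each experiment was fitted on its own with limma 3.58.1 in R 4.3.3 (1 mean per group, trended eBayes, Benjamini-Hochberg over all genes), and the differences between chemicals in 1 fit of all. A gene was called at an adjusted p below 0.05 and at least 1.5-fold. The number of arrays limits the precision.

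The members and gene lists were chosen with earlier results of these data known. Named beside the members are fixed partners, CDKN1A, MDM2 and 9 of the 10 genes most alike across doses. An item that these rules name is not reported here. Partners without a probe set of 1 symbol were not analysed here. Replicate numbers were checked as pairs by correlating deviations from group means of dosed and vehicle samples. All pairs were above 0.1 at 7 of 7 etoposide, 6 of 7 MMS and 4 of 7 quercetin doses (lowest 0.16, -0.01 and 0.06), so the block is given beside results only for the former doses and not for MMS 500 µM or quercetin 60 to 100 µM. The scripts were tested on simulated data. Promoters came from RefSeq (GRCh38.p14). Figures were drawn with matplotlib 3.10.9. Alternatives were the number 2 samples, the replicate block, the filter, the normalization, the mean of probe sets, eBayes without trend, p alone and each replicate left out in turn, and some were added after seeing the data. Where a replicate was left out, the share of all genes called in that fit was not counted.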

Additional observations from a re-analysis of the deposited data

Results flagged for a closer look

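Of 168 groups of 5 or 6 samples (7 genes in 24 groups), 15 held a highest or lowest sample that stood apart from the others by Dixon's test, and chance alone sets off about 1 in 20. Of the 15, 12 were the MMS sample numbered 5, each time the lowest of its group, 6 of them at 300 µM and 6 in the vehicle or at 1 to 10 µM. In MMS 300 µM number 5, BARD1 was at 6.69, BLM at 6.30, BRCA1 at 6.84, BRIP1 at 5.77, FANCG at 6.45 and RAD54L at 6.24, while the other samples began at 7.63, 7.35, 7.72, 7.24, 7.56 and 7.15. In the MMS vehicle number 5, BRCA1 was at 6.45 and BRIP1 at 5.68. In number 5 at 1 µM MMS, FANCG was at 6.75 and RAD54L at 5.97, and RAD54L was at 6.09 at 3 µM and at 6.02 at 10 µM. BARD1 was the highest of its group in etoposide 0.03 µM number 1, at 7.67 against 6.88 to 6.94 in the others. BLM was the lowest in quercetin 30 µM number 3, at 4.92 against 6.54 to 7.20, and RAD54L the highest in quercetin 100 µM number 1, at 7.78 against 5.76 to 6.05. What sets these samples apart was not tested.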

How the results depend on the processing

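Counts of the 7 genes called moved by over 1.5 times as follows, and were otherwise within that range under the alternatives run. With the number 2 samples kept, 0 genes were called lower at 0.1 and 1 µM etoposide (against 64 and 332 of 12070 genes). With them, 1 passed the F-test over quercetin doses, and 0 differed between etoposide and quercetin. With the replicate block, 5, 1 and 2 were called lower at 0.03, 0.3 and 1 µM etoposide (against 0.994%, 1.82% and 3.93% of all genes). From 0.1 to 0.3 µM etoposide 2 rose (against 0.779%). At 80 and 100 µM quercetin 4 and 5 were called lower with the block (against 1663 and 1824 of 12070 genes). The quercetin F-test passed 6 (against 68.7% of all genes). Still with the block, 3 fell from 30 to 100 µM quercetin, and 5 and 3 differed between etoposide and MMS and between etoposide and quercetin. At 60 to 100 µM quercetin and 500 µM MMS the numbers were not shown to pair the samples. With a filter at log2 6, which drops FANCB, 0, 0 and 1 were called lower at 60, 80 and 100 µM quercetin and 1 passed the quercetin F-test. Without number 1 in any quercetin group (chosen after seeing the data), 3 were called lower at 80 µM, 1 fell from 30 to 100 µM, and 2 differed between etoposide and MMS. Without number 3, 1 was called lower at 100 µM, 1 passed the F-test, 1 fell from 30 to 100 µM, 3 differed between etoposide and MMS and 2 between etoposide and quercetin. FANCG at 100 µM quercetin turned to -0.063 with number 2 kept and to -0.049 without number 1 in any group. With 1 replicate left out at a time it lay between -0.11 (without number 1 at that dose) and 0.26, and BLM at 500 µM MMS between -0.25 and 0.081 (without number 5 at that dose). Leaving out 1 replicate at a time gave 0 to 3, 5 to 7, 0 to 1, 1 to 4 and 6 genes called lower at 0.03, 0.1, 0.3, 1 and 3 µM etoposide, 1 to 4 called higher at 300 µM and 1 to 2 lower at 500 µM MMS, and 0 to 1, 1, 1 to 3 and 1 to 4 called lower at 30, 60, 80 and 100 µM quercetin. It gave 3 to 7 for the MMS and 1 to 3 for the quercetin F-test, 2 to 4, 3 to 6 and 0 to 3 for the steps in etoposide, MMS and quercetin, and 1 to 3, 0 to 2 and 2 to 4 for the differences between etoposide and MMS, etoposide and quercetin, and MMS and quercetin (leaving-out for steps, F-tests and differences was added after seeing the data). Quercetin samples enter the difference between etoposide and MMS only through the spread that all 3 experiments share in that fit. Where no share of all genes stands beside a count in this section, that share was not counted. Why the other counts moved was not tested.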
